A study of Mus musculus with 2 samples.

Results

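Fibroblast growth factors (FGFs) and their receptors were followed between the distal and the proximal parts of limb-mesenchymal organoids. The members were 5 ligands (Fgf7, Fgf8, Fgf9, Fgf10 and Fgf18) and 5 receptor genes (Fgfr1, Fgfr2, Fgfr3, Fgfr4 and Fgfrl1), taken by gene symbol from the 13916 genes of the authors' deposited table. Of these 10 members, 9 had a row. Fgf8 had none and was not analysed here.

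Limb mesenchymal cells from mouse embryos of the Slc:ICR stock were grown as organoids for 48 h in medium with added Fgf8b and Wnt3a. On day 2 of culture, 5 organoids were frozen, which came from 4 cultures. Both groups therefore share the strain, the added Fgf8b and Wnt3a, and the age in culture. By the labels they differ in the side of the organoid and in the library. In photo-isolation chemistry, RNA is copied in place with caged primers, and only areas lit with ultraviolet light yield cDNA for sequencing. Each of 5 distal and 5 proximal regions had a barcode of its own, and a side's regions shared 1 library. The side therefore cannot be told apart from the library. P-values, and intervals computed from the deposited standard errors, measure only the spread between regions.

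FGF ligands are secreted proteins that bind receptor tyrosine kinases together with heparan sulfate. In the limb bud, Fgf10 from the mesenchyme and Fgf8 from the overlying apical ectodermal ridge maintain each other and drive outgrowth. Fgf7 and Fgf10 act mainly on the epithelial splice form of Fgfr2, whereas Fgf8, Fgf9 and Fgf18 act mainly on the mesenchymal splice forms of the receptors. The table counts genes and not splice forms, so these forms cannot be told apart here.

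The regions were shallow and unequal. The mean in the authors' deposited table, averaged over all regions, is in normalized counts, that is, counts divided by a size factor for the depth of each region. Size factors were derived from the smallest means of the table. They summed to 2.93 in distal and 9.65 in proximal, so that distal regions held 23.3% of the depth. In counts over the genes of the table, a distal region held roughly 46991 to 118978 and a proximal region 214774 to 345649. Of 12 limb mesenchyme markers, 11 had a row, with means in the authors' deposited table of 159 for Prrx1, 99.2 for Pdgfra and 74.0 for Twist1. Of 16 markers of surface ectoderm and its ridge, 6 had a row, with 13 counts in all, 2 in distal and 11 in proximal. The other 10, Krt5, Sp6, Sp8 and Wnt7a among them, were not analysed here.

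No FGF ligand or receptor differed between the sides past the threshold. In the authors' deposited table, an adjusted p under 0.05 was found for 0 of the 9 members, against 0.977% of all genes, and an unadjusted p under 0.05 also for 0 of 9, against 6.07% of all genes. The median log2 change of the 9 members, distal over proximal, was 0.14 in the authors' deposited table, beside 0.07 for all genes. At a mean of at least 10 it was 0.06 for 4 members, beside 0.00466 for all such genes. Near-empty genes can have a positive deposited change against their counts, as Fgf17 had at 1.19 with 0 distal counts and 1 proximal count. The authors' own test was the only one used, since each side is 1 library. Its smallest called statistic was 3.50 standard errors, so each member's standard error fixes the change that could have been called. In a bulk region, fewer cells of a type and less RNA per cell cannot be told apart.

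The receptor genes other than Fgfr4 were the abundant members. Divided by the length of the longest coding transcript, the mean was 27.0 normalized counts per kb for Fgfr1, 18.5 for Fgfr2, 15.4 for Fgfrl1 and 5.69 for Fgfr3. It was 1.53 for Fgf10, 0.769 for Fgf18, 0.426 for Fgf9, 0.291 for Fgf7 and 0.159 for Fgfr4. The SD over the 10 regions, on the same scale, was 0.778 for Fgf10, 0.672 for Fgf18, 0.248 for Fgf9, 0.446 for Fgf7 and 0.234 for Fgfr4. Each of these 5 genes therefore lay within 1 SD of its neighbour in the order, taking the larger SD of the pair. No spread over regions was available for the other 4. How reads were counted along transcripts is not given in the sources used here, so the order per kb may differ from an order per molecule. Before division by length, the mean was 1.53 for Fgf9 and 0.835 for Fgf18. Their order per kb therefore rests on transcript lengths of 3593 bases for Fgf9 and 1086 bases for Fgf18.

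For the 5 members with low means, whole counts of every region were recovered. A mean is the sum of the 10 region counts, each divided by its size factor and by 10, and only 1 set of whole numbers gave the mean, the log2 change and the standard error of the authors' deposited table at once. The side of a region follows the sign of the authors' contrast, and regions are named below by their size factor because the table does not carry their numbers. Refitting the recovered counts by negative binomial regression, with a floor of 0.5 under the fitted means, returned the log2 changes of these 5 members in the authors' deposited table to within 8.5e-08.

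Fgf10 (ENSMUSG00000021732, GRCm38.p6, chromosome 13, 118714699 to 118792573), the mesenchymal ligand of limb outgrowth, had a higher mean level in distal, with overlapping regions. Normalized counts were 12.02, 4.30, 5.37, 5.88 and 12.17 in the distal regions with size factors of 0.832, 0.698, 0.559, 0.510 and 0.329. They were 5.38, 5.43, 2.56, 4.47 and 5.33 in the proximal regions with size factors of 2.42, 2.21, 1.96, 1.57 and 1.502. The distal regions with size factors of 0.832 and 0.329, with 10 and 4 raw counts, lay above all proximal regions. The distal value of 5.88, from 3 raw counts, was also above the highest proximal one of 5.43. The other distal regions, at 4.30 and 5.37, lay among the proximal ones. Counting error of single regions was not computed. The means were 7.95 ± 3.83 in distal and 4.63 ± 1.23 in proximal (SD, n = 5 regions each). The distal regions held 23 of the 68 counts of Fgf10, or 33.8% (95% exact Clopper-Pearson interval 22.8 to 46.3%), where they hold 23.3% of the depth. In the authors' deposited table its log2 change was 0.75 with a standard error of 0.48 and an unadjusted p of 0.115. The 95% interval computed from those values runs from -0.18 to 1.69, and a change of 1.67 on the log2 scale would have been needed for a call. With any 1 region left out, the log2 ratio of side means of Fgf10, after adding 0.5 to each mean, ranged from 0.53 to 0.87.

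**Figure D1:**
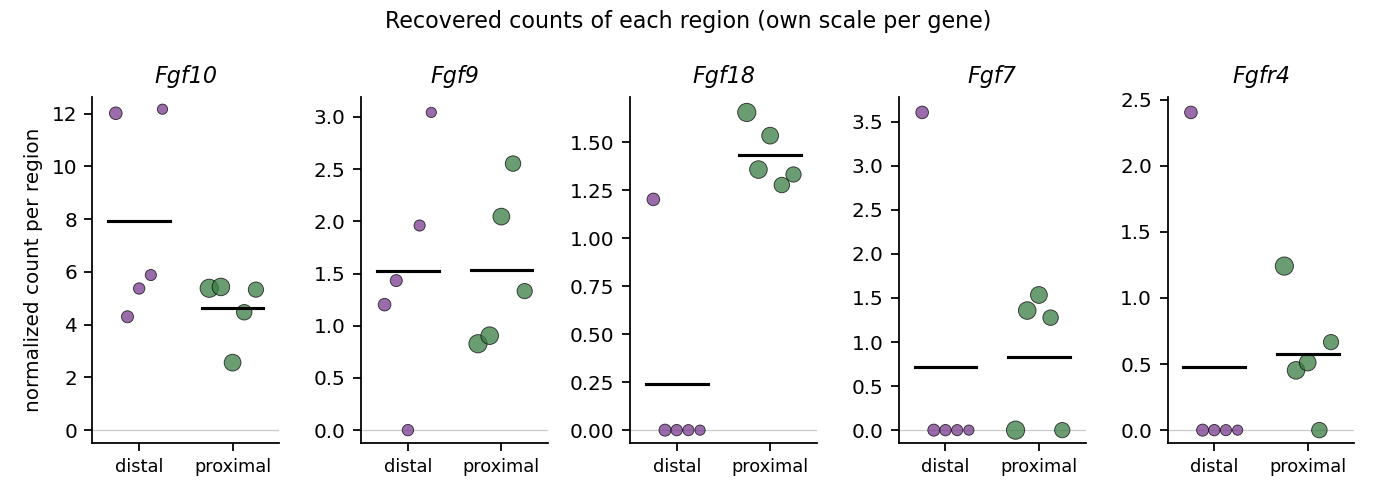
Normalized count of each region (vertical axis, own scale per gene) for the 5 members with recovered counts, by side. Each point is a region, its area grows with the size factor, and black lines are means over 5 regions. The distal regions of Fgf10 reach 12.2 against 5.43 in proximal, and all Fgf7, Fgf18 and Fgfr4 counts in distal come from the same region, the one with the size factor of 0.832.

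Fgf9 (ENSMUSG00000021974, GRCm38.p6, chromosome 14, 58070671 to 58112854), one of the ligands of the apical ridge, had nearly equal side means of 1.53 ± 1.11 in distal and 1.53 ± 0.748 in proximal (SD, n = 5 regions each). Its 18 counts were 1, 1, 0, 1 and 1 in the distal regions and 2, 2, 4, 4 and 2 in the proximal regions, in the order of falling size factor. The distal share of Fgf9 counts was 22.2% (95% exact interval 6.41 to 47.6%). In the authors' deposited table the log2 change of Fgf9 was -0.10 with a standard error of 0.97, so a change under 3.40 on the log2 scale could not have been called.

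Fgf18 (ENSMUSG00000057967, GRCm38.p6, chromosome 11, 33116970 to 33147400), a ligand best known from skeletal growth, had the lowest log2 change among the members in the authors' deposited table, -1.55 with a standard error of 1.20 and an unadjusted p of 0.195. Its 15 counts were 1, 0, 0, 0 and 0 in distal and 4, 3, 3, 2 and 2 in proximal, in the order of falling size factor. Every distal region of Fgf18 lay below every proximal region, with normalized counts of 0 to 1.20 against 1.28 to 1.65. Among the 2381 genes with a mean between 0.5 and 2 and recovered counts, 4.66% had every distal region below every proximal one, and 0.042% the reverse. At the distal depth, the proximal mean of 1.43 for Fgf18 corresponds to 4.19 counts over all distal regions, against the 1 count found. The pooled ratio of distal over proximal was 0.235, with a 95% counting interval from 0.00557 to 1.55. No difference of Fgf18 was detectable at this depth. With 1 region left out, the log2 ratio of side means, after adding 0.5 to each, ran from -1.95 to -1.27. The lower end is the case without the only distal region that holds a count, and there the added 0.5 sets the value.

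Fgf7 (ENSMUSG00000027208, GRCm38.p6, chromosome 2, 126034658 to 126091185), a mesenchymal ligand of epithelial receptors, had 11 counts, 3 of them distal and all 3 in the region with the size factor of 0.832. Proximal counts of Fgf7 were 0, 3, 3, 2 and 0 in the order of falling size factor. The pooled ratio was 1.24 with a counting interval from 0.211 to 5.15. Its log2 change in the authors' deposited table was 0.14, while the ratio of side means of recovered counts was -0.13 on the log2 scale, after adding 0.5 to each mean. The direction of Fgf7 thus differed between these measures.

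Among the receptors, Fgfr4 (ENSMUSG00000005320, GRCm38.p6, chromosome 13, 55152818 to 55168759), which in limbs is known from muscle precursors, was the scarcest, with 8 counts. They were 2, 0, 0, 0 and 0 in distal and 3, 1, 1, 0 and 1 in proximal, in the order of falling size factor. The pooled ratio of Fgfr4 was 1.10 with a counting interval from 0.108 to 6.15, and its log2 change was 0.25 in the authors' deposited table but -0.13 from the side means. Of the 10 muscle precursor markers, 9 had recovered counts, 3 in distal and 269 in proximal together. Their summed normalized counts were 0 to 1.96 in the distal regions and 16.6 to 34.6 in the proximal regions. The marker left out of these sums, Actc1, had a mean of 39.9, too high for the recovery of counts. Its side means, computed from its mean and log2 change in the authors' deposited table, were 8.27 in distal and 71.5 in proximal. They correspond to about 24.2 distal and 690 proximal counts, more than the other 9 markers held together on either side. Fgfr4 thus had 2 of its 8 counts in distal (95% exact interval 3.19 to 65.1%), against 1.10% for the sum of the 9 muscle markers without Actc1. That difference was not tested.

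The 4 abundant receptor genes were measured far more tightly. Their region counts were not recovered, so side means were computed from the mean and log2 change of the authors' deposited table. It was checked on 52 of 60 genes tried, outside the lists and with a mean from 3 to 5. There it missed the recovered distal mean by a median of 3.1% and at most 13.8%. Genes with higher means or with large log2 changes were not part of this check.

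Fgfr1 (ENSMUSG00000031565, GRCm38.p6, chromosome 8, 25518759 to 25575718), the main receptor of limb mesenchyme, had computed means of 131 normalized counts in distal and 141 in proximal. In the authors' deposited table its log2 change was -0.11 with a standard error of 0.16 and an unadjusted p of 0.483. The interval of the difference, from -0.42 to 0.20, corresponds to 0.747-fold to 1.15-fold of the proximal level at 95% confidence. It holds for the spread between regions only, with 1 library a side. A change of 0.55 on the log2 scale would have been called for Fgfr1, the smallest such change of the 9 members.

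Fgfr2 (ENSMUSG00000030849, GRCm38.p6, chromosome 7, 130162451 to 130266808), whose splice forms serve epithelium and mesenchyme, had computed means of 79.2 in distal and 79.9 in proximal. In the authors' deposited table the log2 change of Fgfr2 was -0.01 with a standard error of 0.27, and the interval ran from -0.55 to 0.52.

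Fgfr2 stood apart in its standard error among genes of like mean. Over the 196 genes with means from 63.7 to 99.2 in the authors' deposited table, Fgfr2 included, the median standard error was 0.17, and 2 of them had a higher one than Fgfr2. Counting error alone would give Fgfr2 a standard error of 0.11, so the deposited one is 2.54 times larger. The ratio was 1.90 for Fgfr1, 1.52 for Fgfrl1 and 1.44 for Fgfr3, but it grows with the mean. The dispersion, the term for spread beyond counting error in the negative binomial fit, was solved from the deposited standard error. It is a value of the fit and not a spread measured over regions. For Fgfr2 the dispersion was 0.0755. It was 0.0212 for Fgfr1, 0.0382 for Fgfrl1 and 0.0444 for Fgfr3. Fgf12 came close at 0.0670, and the fitted values of the 5 members with recovered counts were higher, from 0.104 for Fgf10. Such a value need not match the recovered regions. Fgf18 had a dispersion of 0.533, though its proximal regions had an SD of only 0.158 around a mean of 1.43. By these fitted values, the spread beyond counting error was wider for Fgfr2 than for Fgfr1, Fgfrl1 and Fgfr3. The computed side means of Fgfr2 were nearly equal. No test of this difference in spread was run. Which regions were high was not recovered, and the part of any cell type in this spread was not tested.

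**Figure D2:**
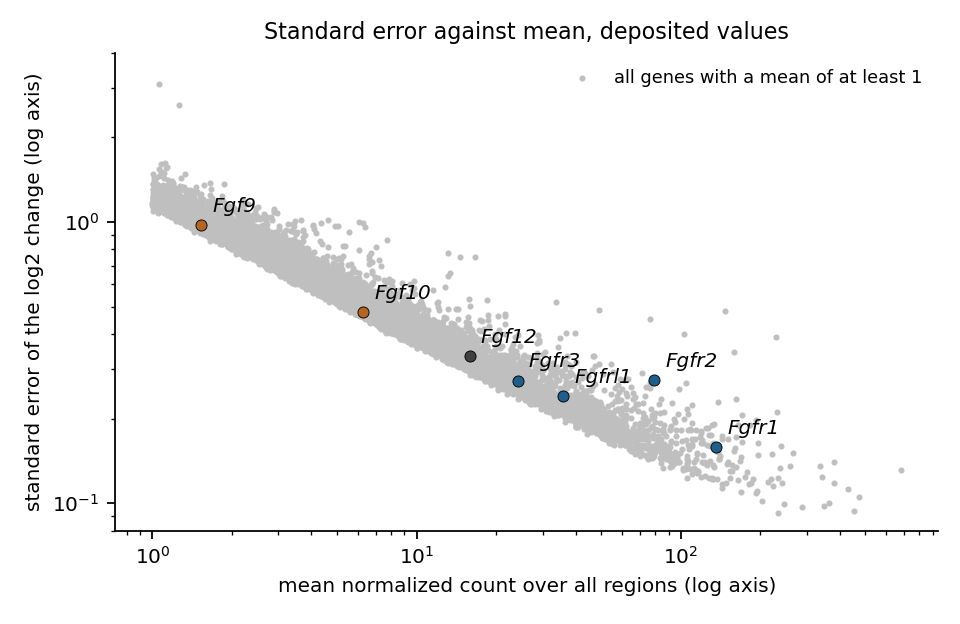
Standard error of the log2 change against the mean normalized count, both from the authors' deposited table and both on log axes, for genes with a mean of at least 1. Fgfr2 lies above most genes of like mean, at 0.27 where their median is 0.17, while Fgfr1, Fgfr3, Fgfrl1, Fgf9, Fgf10 and Fgf12 lie within the band of grey points.

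Fgfr3 (ENSMUSG00000054252, GRCm38.p6, chromosome 5, 33721724 to 33737068), a receptor known from cartilage, had computed means of 27.8 in distal and 20.5 in proximal. Its log2 change in the authors' deposited table was 0.44 with a standard error of 0.27 and an unadjusted p of 0.104, the lowest p of the 9 members. The interval of Fgfr3 ran from -0.09 to 0.98, and 0.95 would have been called. Of the 9 cartilage markers with a row, 1 was called in the authors' deposited table, against 0.395% of all genes called higher in distal. It was Sox9, a factor of early cartilage, with computed means of 842 in distal and 522 in proximal. The summed computed means of these 9 markers were 1399 in distal and 1011 in proximal, so Sox9 made up most of the difference. The list had no common direction, since its median log2 change in the authors' deposited table was -0.05. Acan, a cartilage matrix proteoglycan, stood at -1.57 (unadjusted p 0.0345, adjusted p 0.79) in the same column of the authors' deposited table. The part of cartilage cells in the value of Fgfr3 was not tested.

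Fgfrl1 (ENSMUSG00000008090, GRCm38.p6, chromosome 5, 108694229 to 108706950), a receptor-like protein without a kinase domain, had computed means of 37.7 in distal and 34.3 in proximal. The authors' deposited table gave Fgfrl1 a log2 change of 0.14 (standard error 0.24, unadjusted p 0.57). The interval for Fgfrl1 was -0.34 to 0.61, so a difference beyond 1.52-fold in distal lies outside it. This interval, too, leaves out any difference between libraries.

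**Figure D3:**
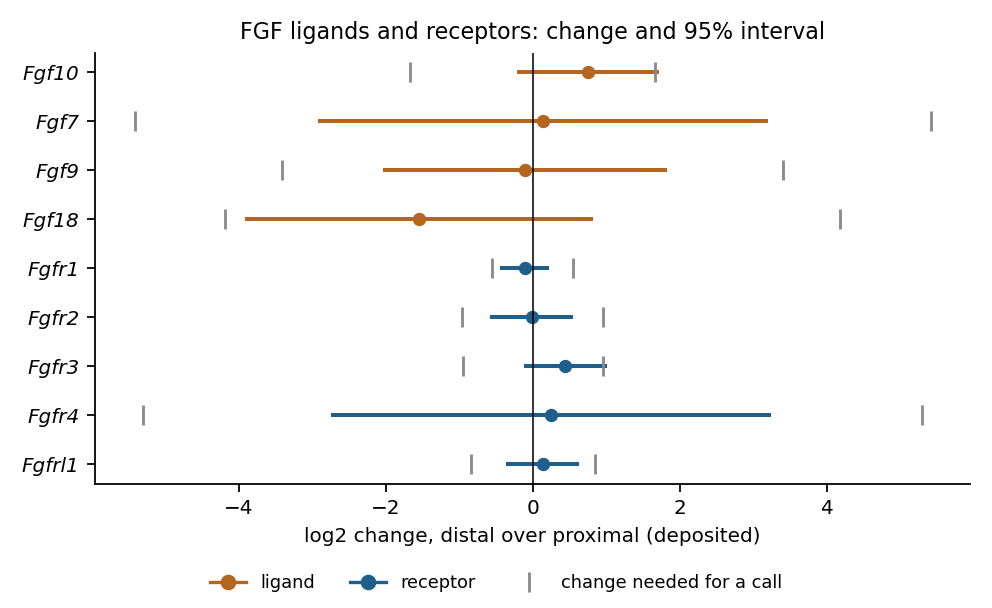
Log2 change of distal over proximal in the authors' deposited table for the 9 members (horizontal axis), with dots for the values and bars for 95% intervals. Grey ticks mark the change that would have been called. Every bar crosses 0, and the bars of Fgfr1, Fgfr2, Fgfr3 and Fgfrl1 are the shortest.

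Other ligands of the family were examined as a background for the members. Of 17 further FGF genes, 9 had a row in the authors' deposited table. An adjusted p under 0.05 was found there for 0 of these 9, against 0.977% of all genes. An unadjusted p under 0.05 was also found for 0 of them, against 6.07% of all genes. Fgf12, an intracellular FGF that does not act through the receptors, had the highest mean of them, 15.9. The authors' deposited table gave it a log2 change of 0.61 (standard error 0.33, unadjusted p 0.0682). Recovered counts of Fgf2, a ligand bound by heparan sulfate, were 4, 7, 1, 0 and 2 in distal and 13, 15, 7, 9 and 8 in proximal. Those of Fgf13, another intracellular member, were 1, 5, 7, 3 and 1 in distal and 18, 12, 13, 6 and 4 in proximal, all in the order of falling size factor. Their side means were 4.54 ± 3.896 and 5.36 ± 1.16 for Fgf2 and 5.96 ± 4.35 and 5.20 ± 1.97 for Fgf13, distal first (SD, n = 5 regions each). Regions overlapped for both genes. Fgf11 had 1 distal and 7 proximal counts. Fgf3, Fgf5, Fgf6, Fgf17 and Fgf22 had 1 or 2 counts in all, too few for a direction on either side.

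Genes that carry the signal into the cell were listed next, with the members and lists chosen when results of these data were known. Of 22 adaptors and cascade genes, from the docking protein Frs2 to the kinases of the Ras-ERK pathway, 22 had a row in the authors' deposited table. An adjusted p under 0.05 was found there for 0 of the 22, against 0.977% of all genes. An unadjusted p under 0.05 was also found for 0, against 6.07% of all genes. Among genes of this list with a mean of at least 10, log2 changes in the authors' deposited table ran from -0.28 for the kinase Map2k1 to 0.40 for the GTPase Nras. Of these 12 genes 9 were positive, with a median of 0.19. Over all 3757 genes with such a mean, 1900 were positive and the median was 0.00466.

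Heparan sulfate genes held 1 of the 2 calls in the 5 pathway lists. Sulf1, a secreted enzyme that removes sulfate groups from heparan sulfate, was lower in distal, with computed means of 51.7 in distal and 101 in proximal. The authors' deposited table gave Sulf1 a log2 change of -0.97 (standard error 0.27, adjusted p 0.0339). Of the 21 genes of this list with a row, 1 was called in the authors' deposited table, lower in distal, against 0.582% of all genes called higher in proximal. At an unadjusted p under 0.05 there were 3, all with negative changes, against 3.51% of all genes. One of the others was Hs6st2, which adds such sulfate groups, at -0.99 on the log2 scale in the authors' deposited table (adjusted p 0.0629). The other was Sulf2, the related sulfatase, named after its value was seen, at -0.62 in the authors' deposited table (adjusted p 0.317). The authors' deposited table gave the proteoglycan Gpc3 the highest mean, 188, and a log2 change of 0.08. The largest positive change at a mean of at least 10 was 0.26 in the authors' deposited table, for the proteoglycan Agrn.

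Feedback inhibitors and ETS targets report FGF signalling in many tissues, and the other call lay in the list drawn up for them. Dusp6 and the Spry, Spred and Etv genes of that list were not called. Flrt2, a membrane protein related to a feedback gene of the pathway and known from cell adhesion and axon guidance, had computed means of 8.40 in distal and 39.5 in proximal. The authors' deposited table gave Flrt2 a log2 change of -2.24 (standard error 0.34, adjusted p 2.62e-08). It was the only call among the 19 genes of this list in the authors' deposited table, against 0.582% of all genes called higher in proximal. Etv5, an ETS factor, stood at 0.55 (unadjusted p 0.131) and the inhibitor Spred1, with the highest mean of 37.3, at 0.37 (unadjusted p 0.101), both log2 changes of the authors' deposited table. Spry4, an inhibitor named after its value was seen, stood at 1.33 in the authors' deposited table (unadjusted p 0.0164, adjusted p 0.531). Its relative Spry2, also named after its value was seen, stood at -0.74 in the authors' deposited table (unadjusted p 0.0737). The median of the 19 genes was 0.33 in the authors' deposited table, beside 0.07 for all genes. Over the 9 of them with a mean of at least 10 it was 0.32, beside 0.00466 for all such genes.

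Some markers of connective tissue and perichondrium were higher in proximal, as Sulf1 and Flrt2 were. Of the 10 markers, 4 were called in the authors' deposited table, Col1a1, Col1a2, Col3a1 and Osr2, and all 4 were higher in proximal. Over all genes, 0.582% were called higher in proximal. Others of the list had positive values in the authors' deposited table, at 1.15 for Osr1 (unadjusted p 0.00908, adjusted p 0.383) and 0.60 for Runx2 (unadjusted p 0.0716). Summed computed means over the 10 markers were 450 in distal and 867 in proximal, and the tendon marker Tnmd had a mean of 0.0511 over all regions in the authors' deposited table. Region sums of the muscle precursor markers, without Actc1, are given beside Fgfr4. Of these 10 markers, 3 were called in the authors' deposited table, all higher in proximal, against 0.582% of all genes. The part of either cell type in the values of Sulf1 and Flrt2 was not tested. Of the 7 Klotho and FGF-binding genes, 2 had a row and 0 were called in the authors' deposited table, against 0.977% of all genes. Fibp, which binds an intracellular form of an FGF, had a log2 change of 0.13 there.

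**Figure D4:**
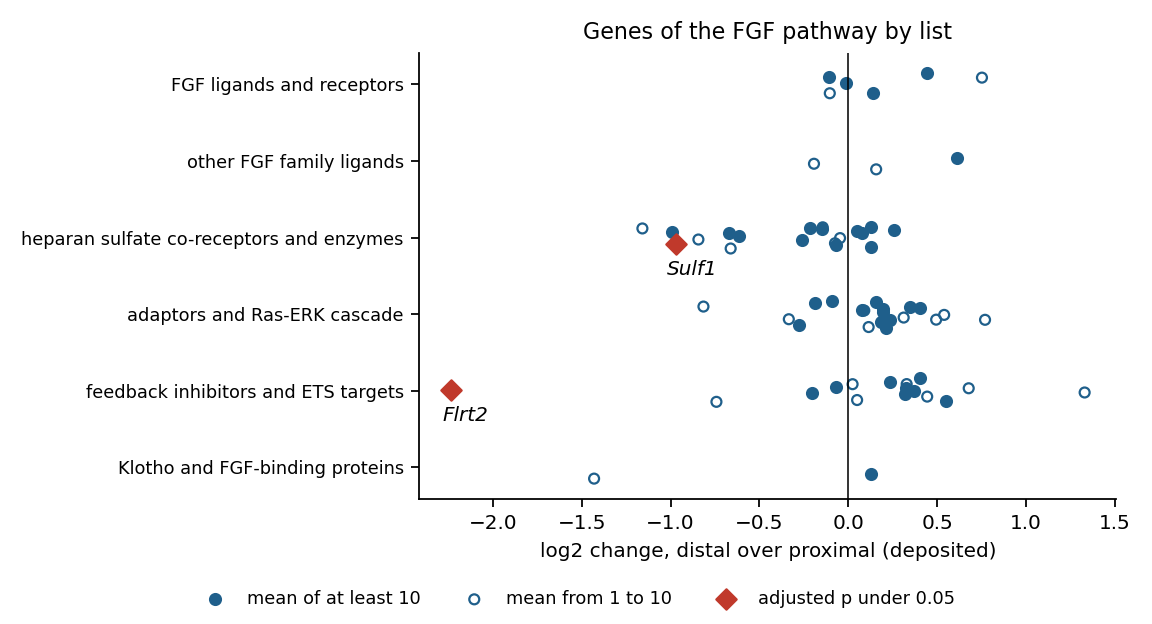
Log2 change of distal over proximal in the authors' deposited table (horizontal axis) for genes with a mean of at least 1 in each list of the pathway (rows, with a small vertical scatter). Red diamonds are the calls, Sulf1 at -0.97 and Flrt2 at -2.24, and the FGF ligands and receptors with such a mean lie between -0.11 and 0.75.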

How the data were processed

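Values came from 1 table, the authors' comparison of distal with proximal. Per the file headers, the deposited columns are a mean signal in normalized counts, a log2 change with its standard error, a statistic (a score), a p-value and an adjusted p-value, made by the authors with DESeq2's column names. The submitters' processing notes name the builds mm10 and GRCm38. Aligner, counting, strand and annotation are not given in the sources used here.

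The members and gene lists were chosen with earlier results of these data known. Size factors were read from the lowest means (steps shared by at least 20 genes, refined on 1701 means) with numpy 2.4.6 and scipy 1.17.1. Whole region counts were sought for means under 7. They were accepted where 1 set met the deposited log2 change within 1e-06 and no other came within 1e-04. For Fgf10 the search compared 1437 sets. It was tested on data simulated with the same fit. The simulated settings did not reach the mean of Fgf10 (6.29) or the dispersions of Fgf7 (1.69) and Fgfr4 (1.34), so the test does not cover these 3 members. Counting intervals are 95% exact intervals and cover counting error only. Coordinates are RefSeq's (GRCm38.p6) and transcript lengths those of GENCODE M21. BLAST 2.17.0 found 0 members with a copy of at least 200 bases at 95% identity in a non-overlapping gene. Genes on the opposite strand overlap Fgf7, Fgf9, Fgf10, Fgfr1 and Fgfr3, and their reads cannot be told apart without strand. Named genes are all members and, in each pathway list, the calls, the highest mean, and the largest change in each direction at a mean of at least 10. One gene that this rule names is not reported here. Folds with 1 to 3 counts on a side carry their counting interval. Protein sequences were not used here.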

Additional observations from a re-analysis of the deposited data

Results flagged for a closer look

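In 3 of the 10 sets of 5 regions examined for the members, 1 region lay far from the other 4. Chance gives about 1 in 20 for continuous values, but that share does not apply here, because a set with counts in a single region is always marked by this measure. In each case it was the distal region with the size factor of 0.832, the deepest of its side, and the other 4 distal regions held no count. Its normalized count was 3.61 for Fgf7, from 3 counts, 1.20 for Fgf18, from 1 count, and 2.40 for Fgfr4, from 2 counts. The same region held 10 of the 23 distal counts of Fgf10. The cause was not tested.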

How the results depend on the processing

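The number of members called was 0 under adjusted p limits of 0.01 and 0.1, adjustment over the table's genes alone, and filters at a mean of 10 or 1. These outcomes were fixed in advance and show no stability. The lowest unadjusted p of a member in the authors' deposited table was 0.104, and adjustment cannot lower a p. The number was also 0 after centring on the median of all genes or of genes with a mean above the median mean. The members' median log2 change ranged from 0.06 to 0.15 over 5 alternatives, 1 of which, pooled-count ratios for the members with region counts, was chosen after seeing the data. Calls in the pathway lists numbered 2, and 3 either with a limit of 0.1 or after subtracting the median of all genes.

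The sign of 2 members changed when side means of recovered counts, plus 0.5, replaced the deposited log2 change, to -0.13 for Fgf7 and -0.13 for Fgfr4. Leaving out each region in turn gave -1.42 to 0.076 for Fgf7, -0.30 to 0.25 for Fgf9 and -1.10 to 0.11 for Fgfr4, so their direction rests on single regions, while Fgf10 was positive and Fgf18 negative in all 10 cases, 1 of which leaves Fgf18 without a distal count. The values of -1.42 for Fgf7 and -1.10 for Fgfr4 are those without the distal region of size factor 0.832, which leaves no distal count, so that the added 0.5 sets them. No paired analysis was possible because no region numbers stand in the deposited file. Depth limits the distal side, where 3 counts correspond to a level of 1.02, against 0.311 in proximal.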
